A study of Mus musculus with 6 samples.

Results

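The genes described here encode the integrins, the cell-surface receptors that hold cells to the extracellular matrix, and the laminins, trimeric proteins of the basement membrane to which many integrins bind. They were taken as all protein-coding genes of chromosomes 1 to 19 in GENCODE vM1 (mouse build mm9) whose symbols begin with Itga, Itgb, Lama, Lamb or Lamc and name a subunit or chain, without Itga8, which serves as a marker of mesangial cells. This gave 37 genes of 21418, 26 for integrin subunits and 11 for laminin chains. DNA methylation had been measured by MeDIP-seq, in which methylated DNA is pulled down with an antibody and sequenced, and the data are lists of peaks, the places where pulled-down reads pile up above the local background. There were 6 samples of primary mouse mesangial cells, the contractile matrix-producing cells between glomerular capillaries, grown at passages 3 to 6 with 25.5 mM glucose and 20% serum. The 3 TGF-β1-treated samples received TGF-β1 at 10 ng/ml for 72 h, and the 3 control samples did not. No source used here gives a mouse genotype or says whether the samples came from separate animals, so the spread between samples may be technical. Peak lists cannot show gene expression, and the cells' identity could not be checked by it.

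An integrin is a pair of an alpha and a beta subunit, and the pair decides the ligand: collagen, laminin, proteins with the Arg-Gly-Asp (RGD) motif such as fibronectin and vitronectin, or counter-receptors on other cells. A laminin is built of an alpha, a beta and a gamma chain, and in the glomerulus laminins form part of both the capillary basement membrane and the mesangial matrix. Methylation of CpG sites near a gene's start often goes with a silent gene, CpG-rich starts are mostly unmethylated in healthy cells, and methylation within gene bodies is common also in active genes. TGF-β1 is itself released from its latent form by integrins of the alpha-v family, and it drives matrix production in mesangial cells.

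The DNA under the peaks most used below is given here from the mm9 genome on the strand of the gene, with each CpG, the site that can be methylated, in capitals. The first 4 stretches are 201 bases centred on the summit of the peaks that lay within 1 kb of a gene's start in all 6 samples. They are followed by a peak upstream of Lama1 and the one intronic region of Itga11 called in the 3 TGF-β1-treated samples and in no control sample. Next is a region of Itgad, which had the highest mean pileup, the number of extended reads over a summit, among regions called in all 6 samples. The last 2 are the 201 bases just upstream of the starts of Itgb1 and Itgav, where no sample had a peak, shown for their CpG content.
Itgb2, 140 bp upstream of the start, chr10:76992757-76992957: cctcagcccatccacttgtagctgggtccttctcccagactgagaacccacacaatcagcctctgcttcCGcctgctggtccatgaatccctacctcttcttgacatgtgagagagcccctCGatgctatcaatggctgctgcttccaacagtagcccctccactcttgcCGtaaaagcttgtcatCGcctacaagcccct
Itgb4, 371 bp upstream, chr11:115835552-115835752: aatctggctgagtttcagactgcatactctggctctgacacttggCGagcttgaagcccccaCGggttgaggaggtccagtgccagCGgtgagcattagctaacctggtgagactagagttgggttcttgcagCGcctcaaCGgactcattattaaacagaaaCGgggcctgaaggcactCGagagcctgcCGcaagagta
Itgal, 399 bp downstream, intron 1, chr7:134440073-134440273: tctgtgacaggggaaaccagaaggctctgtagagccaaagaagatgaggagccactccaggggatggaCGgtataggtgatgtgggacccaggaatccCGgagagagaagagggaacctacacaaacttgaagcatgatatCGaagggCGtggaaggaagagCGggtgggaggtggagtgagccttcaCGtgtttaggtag
Itgam, 509 bp upstream, chr7:135205545-135205745: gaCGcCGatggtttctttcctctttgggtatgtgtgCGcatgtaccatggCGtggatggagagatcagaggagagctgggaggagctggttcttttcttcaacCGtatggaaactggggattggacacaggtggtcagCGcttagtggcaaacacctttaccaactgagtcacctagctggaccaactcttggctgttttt
Lama1, 699 bp upstream, chr17:68045806-68046006: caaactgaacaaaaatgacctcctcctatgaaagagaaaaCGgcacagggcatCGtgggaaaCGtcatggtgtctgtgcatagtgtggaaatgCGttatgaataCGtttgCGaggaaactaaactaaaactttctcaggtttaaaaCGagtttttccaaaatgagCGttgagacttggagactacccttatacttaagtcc
Itga11, intron 2, chr9:62558127-62558327: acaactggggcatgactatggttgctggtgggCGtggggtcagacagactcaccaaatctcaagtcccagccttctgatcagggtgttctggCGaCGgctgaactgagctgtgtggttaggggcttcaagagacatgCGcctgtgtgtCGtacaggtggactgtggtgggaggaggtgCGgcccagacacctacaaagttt
Itgad, intron 11, chr7:135331145-135331345: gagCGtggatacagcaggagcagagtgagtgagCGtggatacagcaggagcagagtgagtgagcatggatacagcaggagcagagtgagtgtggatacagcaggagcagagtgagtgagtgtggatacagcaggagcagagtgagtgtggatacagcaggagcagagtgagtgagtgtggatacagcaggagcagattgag
Itgb1, start without a peak, chr8:131209353-131209553: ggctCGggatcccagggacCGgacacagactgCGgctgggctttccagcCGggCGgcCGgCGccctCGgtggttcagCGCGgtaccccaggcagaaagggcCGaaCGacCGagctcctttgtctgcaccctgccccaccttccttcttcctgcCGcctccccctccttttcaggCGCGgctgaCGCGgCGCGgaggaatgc
Itgav, start without a peak, chr2:83564353-83564553: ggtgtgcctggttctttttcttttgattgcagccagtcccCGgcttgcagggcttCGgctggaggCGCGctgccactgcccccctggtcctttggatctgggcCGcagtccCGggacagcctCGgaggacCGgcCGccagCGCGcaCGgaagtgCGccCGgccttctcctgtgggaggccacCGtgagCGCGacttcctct

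The stretches at the 4 starts with a peak in every sample held 4 CpGs in Itgb2, 8 in Itgb4, 6 in Itgal and 6 in Itgam. The stretches without a peak upstream of Itgb1 and Itgav held 20 and 17. The Itgad stretch held 2 CpGs and was a tandem repeat: shifted by 56 bases it matched itself at 85.5% of its positions, where the other 8 stretches reached at most 42.1% at any shift from 10 to 100 bases.

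Every one of the 37 genes had a peak in some sample, whereas 5189 of all 21418 genes had none. Peaks were counted for a gene when their summit lay in it or within 2 kb of either end. Control samples 1, 2 and 3 had 169, 187 and 206 such peaks, against 211, 215 and 215 in TGF-β1-treated samples 1, 2 and 3. The mean was 187 ± 18.5 (SD, n = 3) in the control samples and 214 ± 2.31 (SD, n = 3) in the TGF-β1-treated samples, and the groups did not overlap. The number of reads moved the same way, with 9407103 to 11494356 reads in the control samples and 12634300 to 13291419 in the TGF-β1-treated samples, so that treatment and depth cannot be told apart. Per 1000000 reads the order turned, at 18.1 ± 1.75 peaks in the control samples against 16.6 ± 0.421 (SD, n = 3). As a share of all peaks on these chromosomes the genes took 0.211% ± 0.00101 in the control samples and 0.213% ± 0.00557 in the TGF-β1-treated samples (SD, n = 3). The difference was smaller than the SD of the TGF-β1-treated samples but larger than that of the control samples, and the groups overlapped.

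Joined across samples wherever they overlapped, the peaks made 372 regions, 229 at integrin and 143 at laminin genes. A peak was called in all 6 samples in 82 of them (22.0%, against 24.5% of all regions on these chromosomes) and in 1 sample in 121 (32.5% against 27.3%). The regions shared by all samples were the stronger ones: their median pileup, which counts the extended reads lying over a summit, was 26 against 17 for regions seen in 1 sample, and their median fold enrichment over the local background was 7.10 against 4.96. Their summits lay within 100 bp of each other across the 6 samples in 61 of the 82. Of the 82, 60 had the summit in an intron, 14 in coding sequence, 3 upstream, 3 downstream and 2 in a UTR, and 27 of the 37 genes held at least 1. No region in all 6 samples was found at Itga2b, Itga4, Itga5, Itgae, Itgb1, Itgb7, Itgb8, Lama5, Lamb2 or Lamc3.

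Peak density was given as peaks per 10 kb of gene and flanks, averaged over the samples, because these genes are long (median 62.4 kb against 15.5 kb for all genes). The median was 0.766 for the 37 genes and 0.510 for all genes, or 0.714 for all genes with a peak, and 25 of the 37 lay above the median of all genes. Within gene bodies the coding exons carried 2.23 peaks per 10 kb and the introns 0.475, a ratio of 4.69 that lay close to the 4.90 of all genes. Of all their peaks, 17.2% ± 3.17 lay in coding sequence in the control samples and 17.5% ± 1.12 in the TGF-β1-treated samples (SD, n = 3), a difference within the spread.

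**Figure D1:**
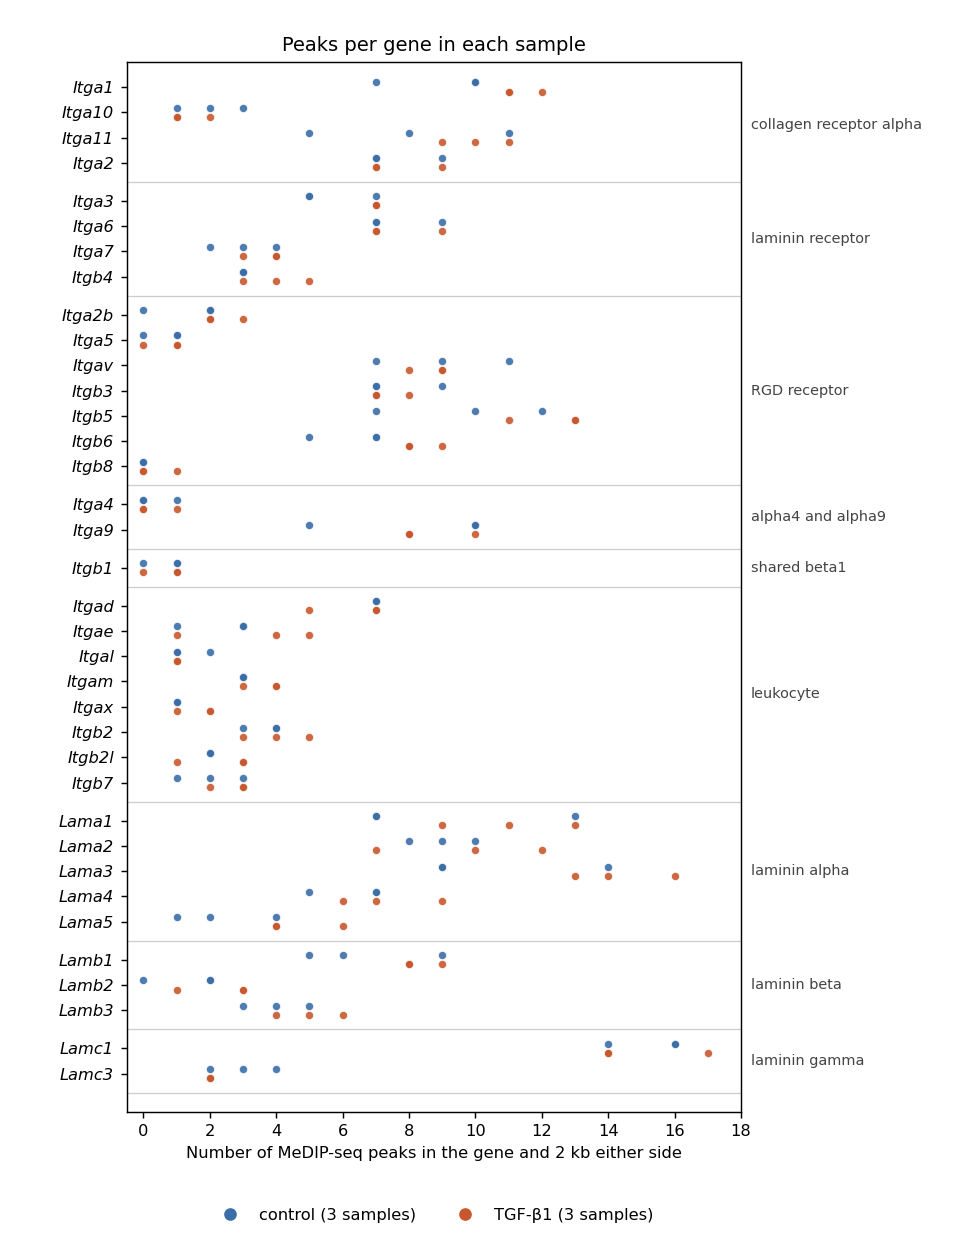
Number of MeDIP-seq peaks (horizontal axis) with the summit in each gene reported here (vertical axis, grouped by role) or 2 kb either side; each point is 1 sample, with 3 control samples in blue and 3 TGF-β1-treated samples in orange, and equal values lie on top of each other. The 2 groups are apart in Itga1 and Itgb6, and Lamc1 lies highest, at 14 to 17 peaks.

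The genes with the highest density came from several roles. Itga3, the alpha subunit of the main laminin receptor of podocytes, was the densest at 1.74 peaks per 10 kb, which is the 95.5th percentile of all genes. It had 5, 5 and 7 peaks in the control samples against 7, 7 and 7 with TGF-β1. Lamc1, the gamma chain shared by most laminins, came next at 1.29, with 16, 16 and 14 peaks against 14, 14 and 17, and it held 10 of the 82 regions called in every sample. Lamb2, the beta chain of the mature glomerular basement membrane, had 1.25 in a gene of 10.7 kb, from 0, 2 and 2 against 3, 3 and 1 peaks. Itgad, a leukocyte alpha subunit, had 1.21, with 7 peaks in each control sample against 7, 7 and 5 with TGF-β1. Itga7, a laminin receptor of muscle, had 1.17, with 2, 4 and 3 against 4, 3 and 4. In all of these the groups overlapped.

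At the other end, Itgb8, which pairs with alpha-v to activate latent TGF-β1, had 0.0197 peaks per 10 kb, a lone peak in intron 1 in TGF-β1-treated sample 2. Itga4, a receptor for fibronectin and VCAM1, had 0.0408, from a peak in control sample 2 and another elsewhere in TGF-β1-treated sample 3. Itgb1, the beta subunit that pairs with most of the alpha subunits named here, had 0.129: its only region lay in coding exon 6, chr8:131237910-131238245, with pileups of 16 and 14 in control samples 1 and 2 and of 15 and 19 in TGF-β1-treated samples 1 and 2, and no peak in control sample 3 or TGF-β1-treated sample 3. Lama2, the muscle-type laminin alpha chain, had 0.146 in a gene of 635.7 kb, with 9, 8 and 10 peaks against 7, 12 and 10. Itga5, the fibronectin receptor alpha subunit, had 0.252, with 1, 0 and 1 peaks against 1, 1 and 0. None of these genes separated the groups.

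A peak summit within 1 kb of the gene's annotated start was present in all 6 samples in 4 of the 37 genes, Itgal, Itgam, Itgb2 and Itgb4, against 3.17% of all genes. In at least 1 sample it was present in 12 of the 37 (32.4% against 13.9% of all genes), and 25 had none in any sample. Per 10 kb, the 2 kb around the starts carried 0.968 peaks and the rest of the windows 0.563, while over all genes the starts carried 0.407 and the rest 0.539. Itgal, Itgam and Itgb2 encode subunits of the beta-2 integrins, which are made by leukocytes. Of the 8 leukocyte genes, 3 had a start peak in every sample and 4 in any sample. Itgax, Itgae, Itgb7 and Itgb2l had none. Itgb4 encodes the partner of alpha-6 in the hemidesmosomes of epithelia.

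The pileup at these 4 starts overlapped between the groups. In Itgb2 (chr10:76992669-76993074) it was 33, 22 and 33 in the control samples against 38, 29 and 26 with TGF-β1. In Itgb4 (chr11:115835444-115835883) it was 19, 30 and 24 against 28, 24 and 28. In Itgal (chr7:134439967-134440421) it was 24, 23 and 22 against 21, 25 and 26. No group stood apart in any of them. In Itgam (chr7:135205454-135205826), whose product with that of Itgb2 is the complement receptor of myeloid cells, it was 15, 23 and 22 against 24, 22 and 24, again with overlap. None of these regions passed the test across the genome given further on.

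**Figure D2:**
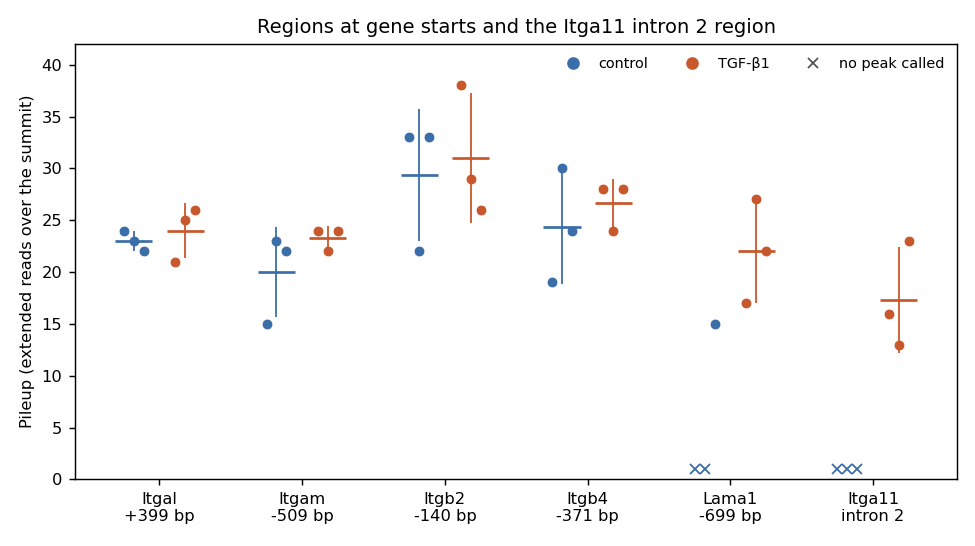
Pileup (extended reads over the summit, vertical axis) in 3 control samples (blue) and 3 TGF-β1-treated samples (orange) for regions named on the horizontal axis with their distance from the gene start; bars are the mean and SD where all 3 samples had a peak, and crosses near 0 mark samples without a called peak, which is no measured value. Itgal, Itgam, Itgb2 and Itgb4 overlap between the groups, while Lama1 has a peak in 1 control sample and Itga11 in none.

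Another 4 starts had a peak in some samples of each group, with 3 or 4 samples in all. The region 699 bp upstream of Lama1, the laminin alpha chain of early embryos (chr17:68045680-68046059), had pileups of 17, 27 and 22 in the TGF-β1-treated samples and of 15 in control sample 3, with no peak in control samples 1 and 2. The region 881 bp upstream of Itga2, a collagen receptor (chr13:115722948-115723372), had 18 and 13 in control samples 1 and 2 and 20 and 16 in TGF-β1-treated samples 1 and 3. The region in exon 1 of Itga2b, the platelet alpha subunit (chr11:102330667-102331341), had 15 and 13 in control samples 1 and 3 and 19 and 17 in TGF-β1-treated samples 1 and 2. At Itgad, 133 bp upstream of the start (chr7:135297460-135297902), it was 23 and 19 in control samples 1 and 3 and 28 in TGF-β1-treated sample 2. A sample without a peak there has no value, since the lists hold only what passed the threshold, and the lowest pileup listed was 8 in each control sample and 9 to 10 in the TGF-β1-treated samples. Itga6, Lamb2 and Lamb3 had a start peak in 1 sample each.

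CpG content differed among these starts. A start was taken as CpG-rich where the 1001 bp centred on it had an observed-to-expected CpG ratio of at least 0.6 and a GC content of at least 50%, which held for 13 of the 37 genes, among them Itga3, Itga5, Itga9, Itgav, Itgb1, Itgb3, Itgb5, Lama5, Lamc1 and Lamc3, which had no start peak in any sample. Lama1 had one in 4 samples, and Itgb4, at a ratio of 0.762 and 75 CpGs, in all 6. In all genes with such starts, 8.62% had a peak in any sample and 1.80% in all 6. Of the 24 members with other starts, 9 had a peak in any sample (37.5%, against 18.2% of all genes with other starts). In all 6 samples 3 of the 24 had one (12.5%, against 4.28% of all genes with other starts). The highest ratios, 0.928 at Itgb1, 0.896 at Itgb5, 0.875 at Itga9 and 0.853 at Itgav, came with no start peak. The 3 leukocyte genes with a start peak in every sample had ratios of 0.309 (Itgal), 0.219 (Itgam) and 0.244 (Itgb2). The leukocyte genes without one in any sample also had low ratios, 0.239 (Itgax), 0.157 (Itgae), 0.163 (Itgb7) and 0.0679 (Itgb2l).

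**Figure D3:**
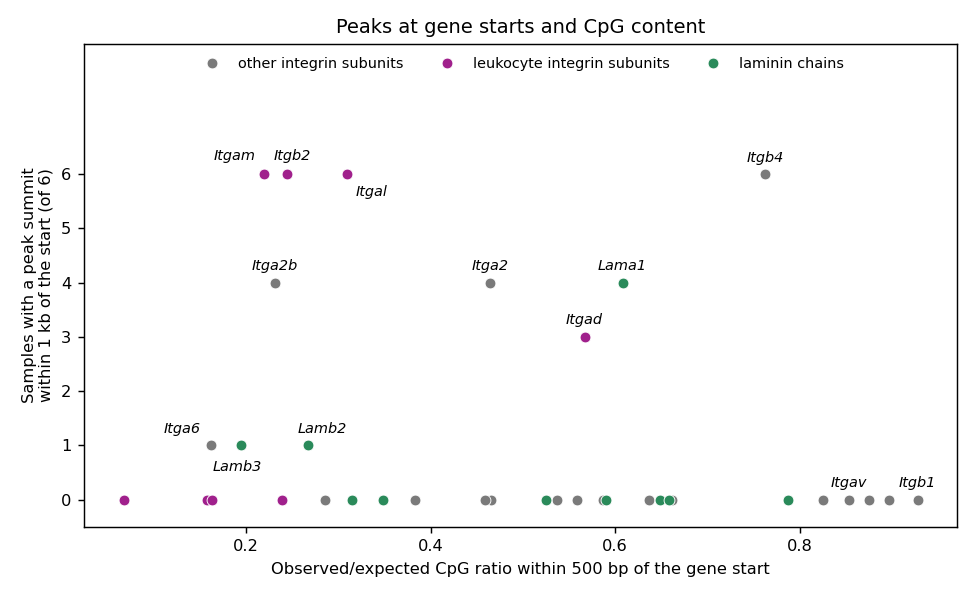
Observed-to-expected CpG ratio over the 1001 bp centred on the gene start (horizontal axis) against the number of samples, of 6, with a peak summit within 1 kb of the start (vertical axis); each point is 1 gene reported here, coloured by class. Among the genes with a ratio above that of Lama1 (0.608), Itgb4 alone has a start peak, and Itgal, Itgam and Itgb2 reach 6 samples at ratios from 0.219 to 0.309.

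Gene by gene, the groups were compared by their peak numbers, first for the collagen receptors. Itga1, the alpha subunit of a collagen receptor of mesangial and smooth muscle cells, had 10, 10 and 7 peaks in the control samples against 11, 11 and 12 with TGF-β1. Every TGF-β1-treated sample lay above every control sample, by 1 peak at the nearest. Per 1000000 reads the mean of Itga1 differed by -0.00157 peaks, TGF-β1-treated minus control samples. Itgb6, the epithelial partner of alpha-v that activates latent TGF-β1, had 5, 7 and 7 against 8, 8 and 9, also without overlap. These were 2 of 37 genes with more peaks in every TGF-β1-treated sample, against 3.93% of the 16229 genes with a peak. An exact two-sided permutation test gave p = 0.1 for each, the smallest that 3 against 3 samples allow, and an adjusted p of 1 over all genes. No gene had more peaks in every control sample (0 of 37, against 0.345% of all genes with a peak), and over the 37 genes no exact p lay below 0.05, as the design allows none. With peak lists cut to equal length the count of genes higher with TGF-β1 was 0. Without control sample 3 it was 8, though leaving a sample out can only keep or raise this count.

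Itga1 held 19 regions. Of these, 3 were called in all 6 samples: one in coding exon 27 (chr13:115756487-115757124; pileup 29, 33 and 53 against 48, 36 and 48), one in intron 11 (22, 18 and 30 against 23, 22 and 26) and one within intron 8 (23, 21 and 36 against 31, 28 and 38). All 3 overlapped between the groups. Other regions were called in a few samples, among them one in coding exon 13 with pileups of 24 and 27 in TGF-β1-treated samples 1 and 2 alone and one in the last exon with 18 and 17 in TGF-β1-treated samples 1 and 3 alone. In Itgb6, 4 of 10 regions were called in every sample, and 3 regions of intron 1 were called in each TGF-β1-treated sample and in 1 or 2 control samples, never in control sample 1.

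The other collagen receptors overlapped between the groups. Itga11, which binds fibrillar collagen on fibroblast-like cells, had 5, 8 and 11 peaks in the control samples against 11, 9 and 10 with TGF-β1. It held the only region of the 372 found with a peak in 3 TGF-β1-treated and 0 control samples, in intron 2 at chr9:62558013-62558480, with pileups of 16, 13 and 23. Over all regions on these chromosomes, 0.946% were called this way, and 0.233% in all 3 control and no TGF-β1-treated sample, which none of the 372 was. With peak lists of equal length the Itga11 region was no longer called this way, and with 1 sample left out the number of such regions ran from 2 to 8, the most without control sample 3 or TGF-β1-treated sample 2. Itga2 had 7, 9 and 7 peaks against 9, 7 and 7. Itga10, made in cartilage, had 1, 2 and 3 against 1, 1 and 2.

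**Figure D4:**
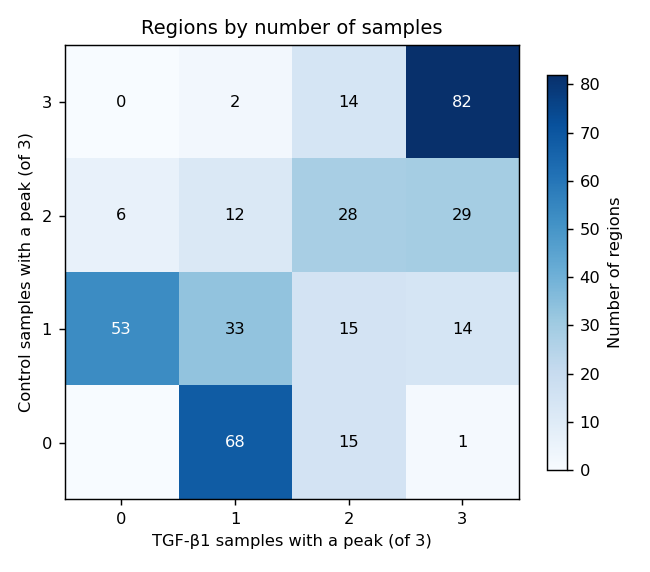
The 372 regions of the 37 genes by the number of control samples (vertical axis) and TGF-β1-treated samples (horizontal axis) with a peak; each cell gives the number of regions, and colour follows it. Most regions lie in all 6 samples (82) or in a lone sample (53 control, 68 TGF-β1), with 1 region in the corner for TGF-β1-treated samples alone and 0 in the opposite corner.

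The calls leaned towards the TGF-β1-treated samples, which were the deeper ones, at these genes as over all regions. Of the 372 regions, 30 had at least 2 more TGF-β1-treated than control samples, the Itga11 region included, and 8 had the reverse. Of all 166838 regions on these chromosomes, 13078 and 5228 did. There were 14 regions called in 3 TGF-β1-treated samples and 1 control sample. That control was sample 1 in 1, sample 2 in 6 and sample 3 in 7. Control samples 1, 2 and 3 had 10319496, 9407103 and 11494356 reads and 81473, 90337 and 100449 peaks in their whole lists. What sets the order was not tested. Only 2 regions were called in 3 control samples and 1 TGF-β1-treated sample: one in coding exon 20 of Itga7 (pileup 14, 18 and 21 in the control samples and 19 in TGF-β1-treated sample 3) and one in intron 3 of Itgav (14, 12 and 18, and 16 in TGF-β1-treated sample 1). The 14 and the 2 regions are part of the 30 and the 8 given above. How many of all regions had either pattern was not counted, so neither count shows a trait of these genes. Treatment and depth cannot be told apart here either.

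Among the laminin receptors, Itga6, the alpha subunit of both the beta-1 and the beta-4 laminin receptor, had 7, 7 and 9 peaks in the control samples against 9, 7 and 7 with TGF-β1. It held 18 regions, only 1 of them called in every sample. Itgb4 had 3, 3 and 3 peaks against 5, 3 and 4. All 4 genes of this role overlapped between the groups, and summed they had 17, 19 and 22 peaks against 25, 20 and 22.

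Among the RGD receptors, Itgav, the alpha-v subunit, had 11, 9 and 7 peaks in the control samples against 8, 9 and 9 with TGF-β1, and 3 of its 14 regions were called in every sample, the strongest in coding exon 20 (chr2:83631852-83632353; 38, 31 and 45 against 36, 27 and 52). Its partner Itgb5, a vitronectin receptor, had 7, 10 and 12 against 13, 11 and 13, where control sample 3 lay above TGF-β1-treated sample 2. Itgb3, shared by platelets and by alpha-v, had 7, 7 and 9 against 7, 8 and 7, and Itga2b had 2, 0 and 2 against 3, 2 and 2. Summed over the 7 genes of this role, the counts were 33, 33 and 38 against 40, 40 and 40. The groups did not overlap in these sums, but the sums are not scaled for depth. The TGF-β1-treated samples were all deeper than the control samples, so treatment and depth cannot be told apart in them. Whether the sums of this role still differ once scaled for depth was not tested. Itga9, which binds tenascin and osteopontin, had 5, 10 and 10 against 8, 8 and 10.

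The leukocyte integrins are made by blood cells and pair with the beta subunits of Itgb2 or Itgb7. Itgal, Itgam, Itgax and Itgad stand on chromosome 7, the last 3 in a row between 135206154 and 135349015. This row held the 3 regions with the highest mean pileup of the 82 called in every sample. In Itgad intron 11 (chr7:135330792-135331982, the tandem repeat printed above) the pileup was 70, 52 and 76 in the control samples against 76, 63 and 87 with TGF-β1. In intron 29 of Itgam it was 42, 58 and 71 against 65, 63 and 63 at chr7:135269151-135269651, and 52, 45 and 56 against 44, 49 and 65 at chr7:135266837-135267237. The groups overlapped in all 3. The order by fold enrichment is another one: it was 7.38 to 9.07 in the Itgad region, against 11.1 to 13.7 in intron 12 of Lama2 (chr10:27016794-27017331). Reads from copies of a repeat can fall on the same place, and what that adds to the Itgad value was not tested.

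By count, Itgam had 3 peaks in each control sample against 3, 4 and 4 with TGF-β1, and Itgal had 1, 2 and 1 against 1 in each. Itgax, the dendritic cell alpha subunit, had 1 in each control sample and 2, 2 and 1. Its region in all 6 samples lay just downstream of the gene (chr7:135294717-135295102), with pileups of 21, 18 and 22 against 32, 27 and 29. The groups did not overlap there in pileup, but the TGF-β1-treated samples were deeper and the difference did not pass the test across the genome. Itgb2 had 4, 4 and 3 peaks against 3, 5 and 4, its close relative Itgb2l had 2 in each control sample and 1, 3 and 3, Itgae had 1, 3 and 3 against 4, 5 and 1, and Itgb7 had 3, 1 and 2 against 2, 3 and 3.

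Among the laminin alpha chains, Lama3, the chain of the epithelial anchoring laminin, had the most peaks of the role, with 14, 9 and 9 in the control samples against 14, 13 and 16 with TGF-β1. Lama1 had 7, 7 and 13 against 9, 11 and 13, and Lama4, the chain of vascular basement membranes, had 5, 7 and 7 against 9, 7 and 6. Lama5, the alpha chain of the mature glomerular basement membrane, had 1, 2 and 4 against 6, 4 and 4, and 19 of its 21 peaks over the samples lay in coding sequence. The groups overlapped or touched in each of these genes. The Lama5 region in coding exon 4 had pileups of 20 and 26 in control samples 2 and 3 and of 29, 28 and 31 in the TGF-β1-treated samples (chr2:179941680-179942140), and control sample 1 had no peak.

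Among the beta and gamma chains, Lamb1, the beta chain of embryonic and mesangial laminin, had 5, 6 and 9 peaks in the control samples against 8, 9 and 8 with TGF-β1. Lamb3 had 3, 4 and 5 against 4, 6 and 5. Lamc3 had 2, 3 and 4 against 2 in each. None of the 11 laminin genes separated the groups, and summed they had 68, 71 and 86 peaks against 82, 88 and 89.

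The signal in shared regions was compared with limma, on the log2 of the pileup centred on each sample's median, over the 41744 regions of the genome with a peak in all 6 samples. Of the 82 regions of the integrin and laminin genes, 0 had an adjusted p below 0.05, and the smallest was 0.999. Over all regions the share was 0%, with a smallest adjusted p of 0.677. At an unadjusted p below 0.05, 2 of the 82 were higher with TGF-β1 and 2 lower, against 1.96% and 2.22% of all regions. With pileup divided by reads in place of centring, 0 were higher and 4 lower, beside 212 higher and 2387 lower over all regions. The median log2 fold change of the 82 was -0.06 (33 higher and 49 lower), the median standard error was 0.21 and the largest change in either direction was 0.53. Detection of changes of this size was not tested.

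The regions with the smallest unadjusted p are given as values only. In intron 15 of Itga9 (chr9:118673599-118674039) the pileup was 14, 10 and 15 in the control samples against 22, 23 and 19 with TGF-β1, a log2 fold change of 0.51 ± 0.21 (SE) with an unadjusted p of 0.0233 and an adjusted p of 0.999 by limma. In coding exon 28 of Itga2 (chr13:115629521-115629946) it was 17, 23 and 17 against 35, 24 and 37 (0.52 ± 0.22, with an unadjusted p of 0.0263 and an adjusted p of 0.999 by limma). Both had no overlap in pileup, and neither passed the adjustment. In coding exon 49 of Lama1 (chr17:68156924-68157388) it was 31, 20 and 42 against 50, 39 and 49 (log2 fold change 0.40), in intron 60 of Lama3 it was 25, 26 and 37 against 40, 40 and 44 (0.29), and in intron 2 of Itga6 it was 28, 16 and 34 against 38, 37 and 35 (0.34). Raw pileup, which is not scaled for depth, also did not overlap between the groups in coding exon 26 of Lamc1 (chr1:155073452-155073831; 26, 22 and 29 against 32, 39 and 34), in coding exon 4 of Lamc1 (chr1:155102126-155102563; 18, 36 and 31 against 39, 40 and 38) and in intron 15 of Itgb4 (chr11:115849966-115850851; 17, 23 and 27 against 28, 33 and 28). Every TGF-β1-treated sample was the deeper one, and how many of all regions had no overlap in raw pileup was not counted. After centring on each sample's median, 33 of the 82 regions were higher with TGF-β1 and 49 lower.

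In the other direction, intron 39 of Lama3 had pileups of 21, 18 and 24 in the control samples against 14, 17 and 20 with TGF-β1 (log2 fold change -0.53 ± 0.21, with an unadjusted p of 0.0179 and an adjusted p of 0.999 by limma). Intron 1 of Itgb6 (chr2:60531954-60532673) had 22, 25 and 35 against 23, 19 and 26 (-0.48 ± 0.21, with an unadjusted p of 0.0312 and an adjusted p of 0.999 by limma), although the gene had more peaks in every TGF-β1-treated sample. The pileups of the groups overlapped in both. Intron 29 of Lama2 had 30, 27 and 41 against 24, 23 and 41 (log2 fold change -0.41), intron 1 of Itga2 had 21, 15 and 19 against 14, 20 and 16 (-0.36), and the region downstream of Itga7 had 25, 24 and 26 against 21, 21 and 28 (-0.33). Itga2 and Lama3 thus each held a region among the highest and one among the lowest log2 fold changes. The summit of the region downstream of Itga7 also lies in the window of Mettl7b.

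**Figure D5:**
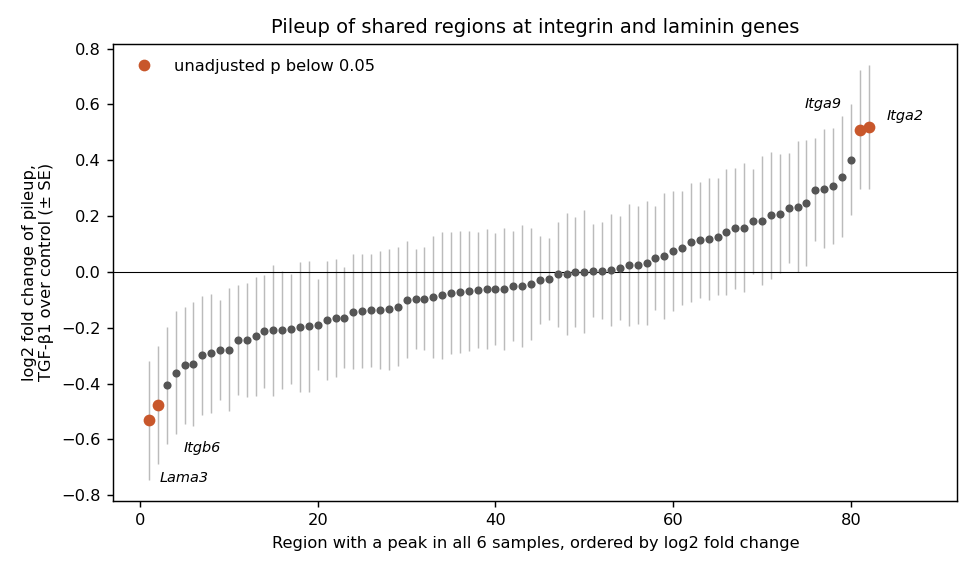
Log2 fold change of centred pileup, TGF-β1-treated over control samples (vertical axis), for the 82 regions called in every sample, ordered along the horizontal axis; points are the limma estimate and bars its SE, and the 4 regions with an unadjusted p below 0.05 are in orange. Estimates run from -0.53 to 0.52, and no region had an adjusted p below 0.05.

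The partners of these genes were taken from a list of 38 genes for basement membrane proteins, integrin ligands and adhesion adaptors. Of these, 2 had more peaks in every TGF-β1-treated sample, Hspg2 (perlecan; 5, 5 and 6 against 7, 10 and 10) and Parvb (beta-parvin, an adaptor; 9, 10 and 11 against 16, 17 and 17), and 0 had more in every control sample, against 3.93% and 0.345% of all genes with a peak. Both had an exact permutation p of 0.1 and an adjusted p of 1. The list's median density was 0.786 peaks per 10 kb, 1 gene (Fermt1, an integrin-activating adaptor of epithelia) had no peak, and 35 of the 38 had no start peak in any sample against 25 of the 37 integrin and laminin genes and 18440 of all 21418 genes. Of their 81 regions with a peak in all 6 samples, 0 had an adjusted p below 0.05 by limma, and 1 was higher and 2 lower at an unadjusted p below 0.05, against 1.96% and 2.22% of all regions.

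Some of the cell types that a glomerular culture could hold were looked at by start peaks at their marker genes. No start peak was present in any sample at 4 of 6 mesangial markers, 4 of 5 podocyte markers, 2 of 4 endothelial markers, 4 of 6 leukocyte markers and 4 of 4 tubule markers. The leukocyte markers Ptprc and Cd68 had one in 5 and 3 samples, and no other marker had one in more than 2. Over all genes, 18440 of 21418 had no start peak in any sample. By peak number, the podocyte marker Podxl (4, 2 and 4 in the control samples against 6, 6 and 6 with TGF-β1) and the endothelial marker Pecam1 (5, 7 and 8 against 12, 9 and 10) had more peaks in every TGF-β1-treated sample, each with an exact permutation p of 0.1 and an adjusted p of 1. None of the other markers in these lists did, and of all genes with a peak 3.93% did. These numbers are not scaled for depth, and the TGF-β1-treated samples were the deeper ones. Of the 372 regions, 20 had the summit also in the window of another protein-coding gene, among them 5 of the 14 regions of Lamb1, which overlap Gm11053, and the 3 regions of Itga10. For these the count cannot be given to a single gene.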

How the data were processed

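MeDIP-seq peak lists of 6 samples were analysed, with groups and replicate numbers from the labels and culture conditions from the study's methods. Per the file headers and those methods, the authors mapped reads to mm9 with BWA, removed duplicates and called peaks in each sample separately with MACS2 2.1.0.20150731 at a q cutoff of 0.01 with no input. Pileup, a deposited signal, is not scaled for depth, fold enrichment is deposited as a ratio of pileup to local background, and the authors gave p-values and q-values as −log10. A list leaves out what stayed under the threshold, so a missing peak is no measured 0. Depth was 9407103 to 13291419 reads per sample. Precision came from the spread between samples alone.

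Positions were used as deposited. Summits were assigned to GENCODE vM1 genes with 2 kb either side, and peaks sharing 1 bp or more were joined over all lists. An item is not reported by name here, and counts over all members include it. Integrin-binding proteins (Itgb1bp, Itgb3bp, Itgbl) were left out. The members and lists were chosen with earlier results of these data known. Values per sample were given for genes whose peak numbers, and regions whose calls, separated the groups, the 5 smallest limma p in each direction, start peaks in at least 3 samples, the 5 densest and 5 sparsest genes, the highest pileups, and Itgb1, Itga3, Itga5, Itgav, Itgax, Lama5, Lamb2 and Lamc1. Further values per sample were given for the remaining members and for a few of their regions, which were chosen after their values were seen. Peak numbers were compared with an exact permutation test over the 20 assignments of samples for every gene, and pileup with limma 3.58.1 (R 4.3.3, trend) over all 41744 regions called in all samples, both two-sided, with Benjamini-Hochberg adjustment. The limma step was tested on simulated data for this comparison over 41744 regions: of 200 regions changed by 1 on the log2 scale 145 were recovered with 9 false calls, and of 200 changed by 2 all 200 with 9 false calls. The simulated pileups had Poisson (counting) noise alone and no peak threshold. In the data, a region without a peak in some sample was left out before the fit, so these figures need not hold there. Alternatives were other thresholds, depth scaling, assignment, joining, left-out samples and a replicate block. Sequences came from the NCBIM37 (mm9) genome.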

Additional observations from a re-analysis of the deposited data

How the results depend on the processing

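The count of 0 limma calls held for division by reads, fold enrichment, regions in at least 3 samples and joining within 200 bp. It also held for each left-out sample and the replicate block. The smallest adjusted p by limma ran from 0.761 to 0.9999 over these settings. At an adjusted p of 0.01 with a log2 fold of 2 the count was 0 too, which follows from 0 calls at 0.05. All 110 values of the named regions kept their sign. This is no independent check, since the regions were picked for their small p in these same pileups. Deviations of same-numbered samples correlated at -0.0464, 0.0432 and -0.130, and those of samples with unlike numbers at -0.124 to 0.168. No source used here says whether same-numbered samples were paired, and these correlations cannot settle it. With the replicate block, the paired count of genes higher with TGF-β1 was 3 in place of 2 (Itga1, Itgb5 and Itgb6), and limma gave 0 calls. The paired difference in summed peaks was 26.3, which by arithmetic equals the unpaired one. The count of genes higher in every TGF-β1-treated sample, 2 as reported, was 1 at a −log10 q of at least 5 (Itgb6), 1 at a fold enrichment of at least 5 (Lama5, neither of the 2 reported), 0 with lists of equal length and 0 per 1000000 reads, and 2 to 8 with a sample left out, the most without control sample 3, 4 without TGF-β1-treated sample 1, 4 without 2 and 5 without 3. The count of genes higher in every control sample, 0 as reported, was 2 with equal lists, 5 per 1000000 reads and 0 to 1 with a sample left out, the 1 being Lamc3 without control sample 1. Leaving a sample out loosens both rules, so neither count of genes could fall below the reported one. The difference in summed peaks was 3.67 with equal lists and -1.48 per 1000000 reads, where that of Itga1 was -0.00157. The region called in TGF-β1-treated samples alone was lost with equal lists (0) and with joining within 200 bp (0). With a sample left out there were 2 to 8 such regions, and 0 to 3 in control samples alone, which were 1 with equal lists. The 4 genes with a start peak in all samples were the same at a −log10 q of at least 5 and with equal lists. Leaving a sample out could not lose any of them, and it added none. Counting any overlap gave 5, 500 bp in place of 1 kb gave 3 (without Itgam), a fold enrichment of at least 5 gave 3 (without Itgb2), and the 2 kb upstream alone gave 4 (Itga2 in place of Itgal). Every TGF-β1-treated sample was deeper than every control sample, and treatment and depth cannot be told apart. Control samples 1, 2 and 3 had 169, 187 and 206 summed peaks, with 10319496, 9407103 and 11494356 reads. Their whole lists held 81473, 90337 and 100449 peaks. What sets the order of the sums was not tested.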
